A study of Mus musculus with 12 samples.

Results

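Transcripts of 48 mouse genes of the Wnt signalling system were examined, out of 38924 genes counted in bulk RNA sequencing of sorted cells. The genes were taken by name: 19 Wnt ligands, 10 Frizzled receptors, the 2 co-receptors Lrp5 and Lrp6, 6 secreted Wnt binders (Sfrp1, Sfrp2, Sfrp4, Sfrp5, Frzb and Wif1), 3 Dickkopf proteins, 4 R-spondins, 3 Lgr receptors and the feedback target Axin2. All 48 were present in the count tables. The series traced cells in C57BL/6 mice of 2 genotypes, Myf5-Cre-ROSAmTmG and Ucp1-iCre-ROSAmTmG, whose reporter switches from membrane tdTomato to membrane GFP in any cell that has carried active recombinase and in its progeny. Mammary cells sorted as Lin-:CD24+:CD29hi, called myoepithelial by the labels, came from mice at day 10 of lactation. In the Myf5 line they were divided into GFP+ and GFP- cells, and likewise in the Ucp1 line. GFP+ brown adipocytes came from virgin females of each line at 8 weeks of age. Each of the 6 groups had 2 libraries. The groups are called Myf5 GFP+ and Myf5 GFP- myoepithelial cells, Ucp1 GFP+ and Ucp1 GFP- myoepithelial cells, and Ucp1 and Myf5 brown adipocytes. GFP in these lines records past activity of the Myf5 or Ucp1 driver, not present expression of that gene, and brown adipocytes without GFP were not analysed here. Mammary cells and brown adipocytes differed in reproductive state as well as in tissue.

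Wnt proteins are secreted lipid-modified ligands that bind Frizzled receptors together with the co-receptors Lrp5 and Lrp6 and so stabilise beta-catenin, or signal through other routes that do not need beta-catenin. Secreted Frizzled-related proteins and Wif1 bind the ligand, Dickkopf proteins such as Dkk1 and Dkk2 bind the co-receptors, and R-spondins acting through Lgr4, Lgr5 and Lgr6 raise the amount of Frizzled on the cell surface. In the mammary gland Wnt signalling is known for its part in duct branching and in basal stem cells, and in adipose tissue Wnt signalling through beta-catenin is known to restrain adipocyte differentiation.

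Library totals ran from 11027738 to 32956480 counts, and levels are given in counts-per-million (CPM). In raw totals, a gene without counts in a library lay under 0.0910 to 0.272 CPM, which is what 3 counts are worth there, a floor for counting error only. The levels also carry scaling factors (TMM), of 0.660 to 0.938 in brown and 1.02 to 1.25 in mammary libraries. On that scale the floor is higher in brown and lower in mammary libraries. The Ucp1 GFP+ myoepithelial libraries stood apart, with 10909 and 10560 detected genes, compared with 13761 to 19794 detected genes in the other 10 libraries, at totals of 22313233 and 32956480 counts. Of the 48 genes, 13 and 12 had a count in the Ucp1 GFP+ myoepithelial libraries, against 44 and 44 in the Ucp1 GFP- libraries. Replicate libraries correlated at r = 0.60 in that group and at r = 0.79 to 0.98 in the other groups, over 9207 genes. Summed contractile markers of myoepithelial cells were at 4523 to 6645 CPM in Myf5 GFP+, 10107 to 20026 CPM in Myf5 GFP-, 1742 to 4205 CPM in Ucp1 GFP+ and 12723 to 15067 CPM in Ucp1 GFP- cells, and at 46.9 to 648 CPM in the 4 brown adipocyte libraries. Summed basal epithelial markers were at 154 to 391 CPM in Myf5 GFP+ cells, against 2538 to 4472 CPM in Myf5 GFP- cells. The sort gene Cd24a was at 52.4 and 13.1 CPM in Myf5 GFP+ and at 0.625 and 16.9 CPM in Ucp1 GFP+ cells, against 62.4 to 122 CPM in the 4 GFP- libraries. Itgb1, the gene of the other sort marker CD29, overlapped between GFP+ and GFP- libraries. It was at 382 and 834 CPM in Myf5 GFP+ and at 697 and 866 CPM in Ucp1 GFP+ cells. The 4 GFP- libraries had 268 to 970 CPM of Itgb1. Brown adipocyte markers summed to 2851 to 8230 CPM in Ucp1 brown adipocytes and to 20154 to 25061 CPM in Myf5 brown adipocytes, against 131 to 629 CPM in the mammary libraries. The driver gene Myf5 had 193 counts in Myf5 GFP+ replicate 1, 2 counts in Ucp1 GFP- replicate 1 and 0 counts elsewhere. The driver gene Ucp1 had 0 counts in the 4 GFP+ myoepithelial libraries and 12 to 61 counts in the 4 GFP- myoepithelial libraries.

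Of the 48 genes, 36 had enough counts to be tested: 11 ligands, 9 Frizzled genes, both co-receptors, all 6 secreted binders, 2 Dickkopf genes, 2 R-spondins, all 3 Lgr genes and Axin2. The 12 that did not pass were Wnt3, Wnt3a, Wnt7a, Wnt8a, Wnt8b, Wnt9b, Wnt10b, Wnt16, Fzd10, Dkk1, Rspo2 and Rspo3. Wnt10b reached 2.96 CPM and Rspo2 reached 3.80 CPM, both in Myf5 GFP+ replicate 2, and the other 10 stayed at or under 0.595 CPM in every library. A gene can pass this filter only through the group where it is high, which favours a difference. Counts below are therefore read against the share of all 16953 tested genes called in the same comparison.

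The ligand that led the set differed from group to group when levels were put on a per-length scale (CPM per kilobase of exon, mean ± SD). In GFP- myoepithelial cells of both lines together, Wnt6 led at 11.4 ± 6.40 CPM per kilobase, ahead of Wnt10a at 3.29 ± 3.10, Wnt4 at 2.37 ± 2.13 and Wnt5b at 1.93 ± 1.40 CPM per kilobase (n = 4), and the last 3 of these lay within each other's spread. In Myf5 GFP+ myoepithelial cells Wnt2 led at 46.2 ± 22.5 CPM per kilobase, followed by Wnt11 at 12.7 ± 15.6 and Wnt9a at 3.92 ± 2.72 CPM per kilobase (n = 2). In Ucp1 GFP+ myoepithelial cells Wnt9a led at 8.72 ± 1.03 CPM per kilobase, and Wnt6, at 4.58 ± 6.48 CPM per kilobase (n = 2), came from 1 of the 2 libraries. In brown adipocytes of both lines together Wnt5a, at 1.22 ± 0.828 CPM per kilobase, and Wnt11, at 1.15 ± 0.492 CPM per kilobase (n = 4), led the ligands and did not differ beyond their spread. On the same scale the leading Frizzled gene of a library was Fzd4 in 6 libraries, Fzd7 in 3, Fzd6 in 2 and Fzd8 in 1, and of the co-receptors Lrp6 was above Lrp5 in all 12.

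**Figure D1:**
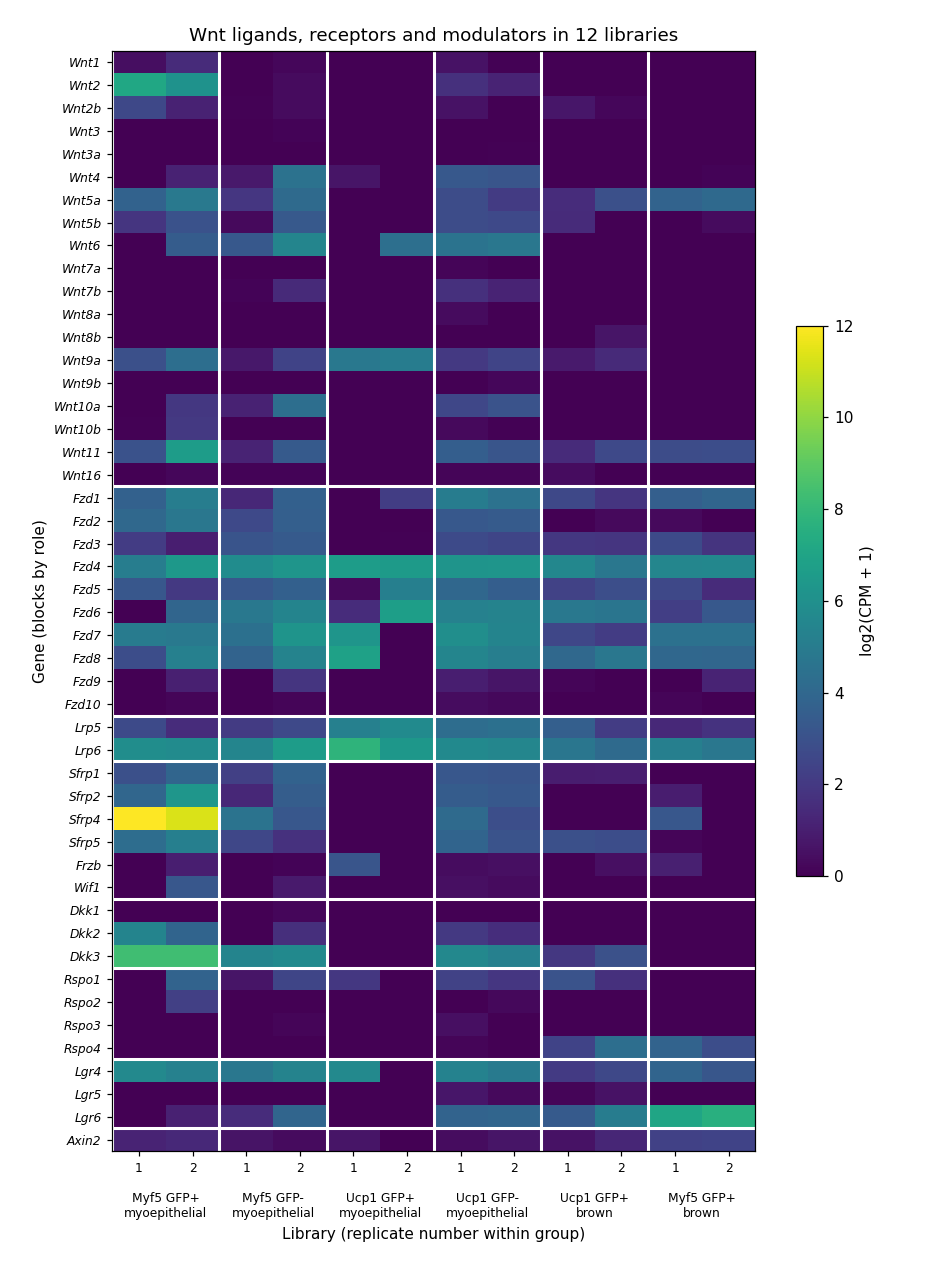
Levels of the 48 genes (rows, grouped by role) in the 12 libraries (columns, GFP+ before GFP- and mammary before brown), as log2(CPM + 1) on the colour scale. Sfrp4 in the 2 Myf5 GFP+ myoepithelial libraries (4024 and 2532 CPM) stood far above Sfrp4 in every other library, and most ligands and secreted modulators were at 0 in the 2 Ucp1 GFP+ myoepithelial libraries.

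The first comparison asked how Wnt genes of mammary cells with a Myf5 history differed from those of unlabelled mammary cells of the same line. In Myf5 GFP+ cells, Sfrp4, Dkk2, Dkk3 and Wnt2 had levels far above those in Myf5 GFP- cells in both libraries, while Sfrp1, Frzb and Wif1 overlapped between the groups. No member was called at an adjusted p of 0.05 in edgeR's quasi-likelihood test over all 12 libraries, where 0% of all genes were called (1573 genes and 7 members had an unadjusted p under 0.05, and the smallest adjusted p of any gene was 0.212). Levels are therefore given here as values.

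Sfrp4, a secreted Frizzled-related protein, was at 4024 and 2532 CPM in Myf5 GFP+ cells, against 22.8 and 8.42 CPM in Myf5 GFP- cells, a log2 fold change of 7.71 (SE 1.91, edgeR adjusted p = 0.301). Dkk3, a Dickkopf relative whose action on Wnt signalling is less clear than that of Dkk1, was at 319.9 and 319.8 CPM in Myf5 GFP+ cells, against 41.0 and 51.3 CPM in Myf5 GFP- cells (log2 fold change 2.79, SE 0.58, edgeR adjusted p = 0.263). Wnt2, a ligand that signals through beta-catenin, was at 140.0 and 68.1 CPM in Myf5 GFP+ cells, against 0 and 0.283 CPM in Myf5 GFP- cells (log2 fold change 9.45, SE 1.82, edgeR adjusted p = 0.263). For these 3 genes the lowest GFP+ library lay several times above the highest GFP- library. Dkk2, which binds Lrp6, was at 42.2 and 13.6 CPM in Myf5 GFP+ cells, against 0 and 2.06 CPM in Myf5 GFP- cells. Sfrp5 was at 18.7 and 35.5 CPM in Myf5 GFP+ cells, against 4.93 and 2.27 CPM in Myf5 GFP- cells, and Sfrp2 at 14.3 and 79.1 CPM, against 1.51 and 10.5 CPM. The groups did not overlap for Dkk2, Sfrp5 or Sfrp2, whose edgeR adjusted p-values were 0.556, 0.447 and 0.721. Sfrp1 differed from its relatives in that its ranges overlapped, with 6.73 and 13.8 CPM in Myf5 GFP+ cells, against 3.77 and 12.7 CPM in Myf5 GFP- cells.

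Without the 2 Ucp1 GFP+ libraries, edgeR's quasi-likelihood test on the other 10 libraries called Dkk3 (adjusted p = 0.0460) and Wnt2 (adjusted p = 0.0269) higher in Myf5 GFP+ cells, 2 of 34 members tested, where 1.09% of all genes were called higher and 0.315% lower. Sfrp4 missed that threshold (adjusted p = 0.0797). DESeq2 on all 12 libraries called 4 members higher, Dkk3, Sfrp4, Sfrp5 and Wnt2, where 2.87% of all genes were called higher and 1.4% lower. Limma-voom called Dkk3 and Sfrp4 higher, where 0.354% of all genes were called higher and 0.0649% lower. No member was called lower in Myf5 GFP+ cells by any of these. All libraries of the GFP+ group lay above all of the GFP- group for 12 of the 36 tested members, against 14.5% of all tested genes, and below them for 4 members, against 20.2% of all tested genes.

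The 4 members below were the ligand Wnt7b, the receptors Fzd3 and Fzd6, and Lgr6. Fzd6, a Frizzled receptor known for its part in tissue polarity, was at 0 and 14.2 CPM in Myf5 GFP+ cells, against 27.1 and 41.5 CPM in Myf5 GFP- cells, and Lgr6 at 0 and 1.13 CPM, against 1.91 and 14.3 CPM. Fzd3, which also acts in polarity and axon guidance, was at 3.36 and 0.986 CPM in Myf5 GFP+ cells, against 7.68 and 9.63 CPM in Myf5 GFP- cells, and Wnt7b at 0 and 0 CPM, against 0.0888 and 1.66 CPM. None of the 4 passed the test (edgeR adjusted p = 0.458 to 0.933). Wnt4 and Wnt6, ligands of the mammary epithelium and of surface epithelia, were uneven between replicates. Wnt6 was at 0 and 10.3 CPM in Myf5 GFP+ cells, against 8.96 and 43.1 CPM in Myf5 GFP- cells, Wnt10a at 0 and 2.82 CPM, against 1.24 and 18.9 CPM, and Wnt4 at 0 and 1.23 CPM, against 0.754 and 22.2 CPM. In each of these 3 genes replicate 2 was the higher library of both groups.

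Wnt5a and Wnt11, ligands known mainly for signalling without beta-catenin, and Wnt9a were also higher in replicate 2 of both groups. Wnt11 was at 7.16 and 98.3 CPM in Myf5 GFP+ cells, against 1.29 and 9.43 CPM in Myf5 GFP- cells, Wnt5a at 12.6 and 27.6 CPM, against 2.75 and 16.6 CPM, and Wnt9a at 6.66 and 19.5 CPM, against 0.710 and 4.25 CPM. Of the 3, Wnt9a alone had groups that did not overlap (log2 fold change 2.39, SE 1.12, edgeR adjusted p = 0.587). The receptors Fzd4, Fzd7 and Fzd8 and the co-receptor Lrp6 gave no such separation. Fzd4 was at 33.3 and 84.0 CPM in Myf5 GFP+ cells, against 55.4 and 76.0 CPM in Myf5 GFP- cells, Fzd7 at 31.1 and 27.98 CPM, against 20.9 and 74.1 CPM, and Fzd8 at 6.10 and 36.8 CPM, against 13.2 and 40.3 CPM. Lrp6 was at 57.7 and 54.0 CPM in Myf5 GFP+ cells, against 43.0 and 97.5 CPM in Myf5 GFP- cells, and Lrp5 at 5.42 and 1.83 CPM, against 3.28 and 5.18 CPM. Among the remaining Frizzled genes, Fzd1 was at 12.4 and 33.2 CPM in Myf5 GFP+ cells, against 1.51 and 11.6 CPM in Myf5 GFP- cells, Fzd2 at 15.8 and 26.4 CPM, against 5.19 and 11.3 CPM, and Fzd5 at 8.72 and 2.99 CPM, against 8.43 and 11.7 CPM. Fzd1 and Fzd2 did not overlap between the groups and Fzd5 did, and neither of the first pair passed the test. The feedback target Axin2 was at 1.31 and 1.58 CPM in Myf5 GFP+ cells, against 0.533 and 0.283 CPM in Myf5 GFP- cells, low in both groups and without overlap.

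Markers of fibroblasts moved with these levels. The 8 fibroblast markers, all detected in each of these libraries, summed to 11808 to 19230 CPM in Myf5 GFP+ cells, against 561 to 895 CPM in Myf5 GFP- cells, and the 7 pericyte markers to 2703 to 2934 CPM, against 428 to 670 CPM. The 8 basal epithelial markers went the other way (154 to 391 CPM, against 2538 to 4472 CPM), as did the 7 endothelial markers (899 to 1234 CPM, against 3564 to 3748 CPM). Their part in the Sfrp4, Dkk3, Wnt2 and Dkk2 levels was not tested. In bulk libraries fewer cells of a type and less RNA per cell cannot be told apart. The median log2 fold change over the 34 members with a count in either group was 0.72, with genes empty in 1 group set at their bound, against -0.08 over all tested genes.

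**Figure D2:**
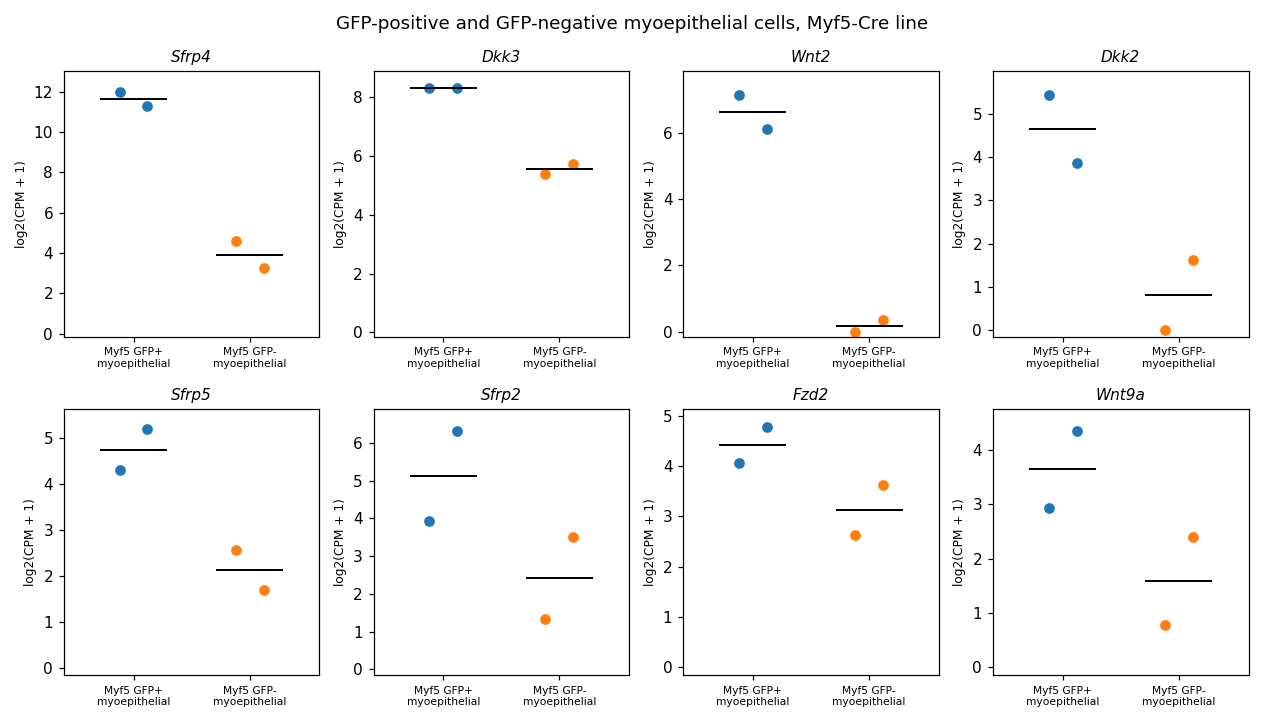
Level of 8 genes in each library of the Myf5 line, as log2(CPM + 1), with Myf5 GFP+ myoepithelial cells on the left and Myf5 GFP- myoepithelial cells on the right of each panel. Points are libraries (n = 2 per group), the bar is the mean of the 2 points and the panels have different axes. The 8 genes were picked from the 12 of 36 tested members whose GFP+ libraries both lay above both GFP- libraries, where 14.5% of all tested genes did. Another 4 members lay below, where 20.2% of all tested genes did, and no member was called by edgeR over all 12 libraries.

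Wnt2 and Dkk2 each had no count in 1 Myf5 GFP- library and were well above 10 CPM in both Myf5 GFP+ libraries, and so their promoters are shown, from 250 bases before to 50 bases after the RefSeq start (build GRCm38.p6). Wnt2 lies at chr6:17988940-18030585 on the minus strand of mm10 and its promoter window at chr6.0:18030396.0-18030695.0. Dkk2 lies at chr3:132085292-132180304 on the plus strand and its window at chr3.0:132085042.0-132085341.0. Each is written 5′ to 3′ on the gene's own strand, with capitals at matches on either strand to 3 motifs: the TCF/LEF word (CTTTGAA or CTTTGAT or CTTTGTA or CTTTGTT), the TATA box TATAAA and the GC box GGGCGG.
Wnt2 promoter: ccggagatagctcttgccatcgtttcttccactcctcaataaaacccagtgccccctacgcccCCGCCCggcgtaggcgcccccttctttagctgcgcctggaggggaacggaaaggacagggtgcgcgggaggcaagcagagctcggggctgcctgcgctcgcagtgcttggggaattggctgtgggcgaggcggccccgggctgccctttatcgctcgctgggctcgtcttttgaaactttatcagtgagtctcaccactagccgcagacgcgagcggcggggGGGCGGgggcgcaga
Dkk2 promoter: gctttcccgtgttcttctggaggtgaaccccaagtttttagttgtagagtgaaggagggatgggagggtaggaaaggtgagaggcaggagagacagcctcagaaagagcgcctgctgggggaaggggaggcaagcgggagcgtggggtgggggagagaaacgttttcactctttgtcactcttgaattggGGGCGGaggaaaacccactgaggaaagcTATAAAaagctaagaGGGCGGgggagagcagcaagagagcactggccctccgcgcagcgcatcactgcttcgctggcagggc
The Wnt2 window held 2 GC boxes and no other match. The Dkk2 window held 2 GC boxes and 1 TATA box. Of all 32851 promoters in the RefSeq table, 35.7% held a GC box, 13.6% a TATA box and 16.9% a TCF/LEF word. Among the 32 members with an entry in that table, 24 (75%) held a GC box, 5 (15.6%) a TATA box and 4 (12.5%) a TCF/LEF word, the last being Wnt3, Wnt11, Fzd7 and Dkk1. The member promoters were also richer in G and C, with a median of 69.5% against 52.7% over all promoters, and had a median of 28 CpG sites, against 7. The table covers genes of every kind, not only coding genes. A match is a description of the letters in the window.

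The second comparison made the same contrast in the Ucp1 line. In Ucp1 GFP+ myoepithelial cells most ligands and Sfrp1, Sfrp2, Sfrp4, Sfrp5, Dkk2 and Dkk3 were at or near 0, as were the receptors Fzd2, Fzd3 and Lgr6. Fzd4, Lrp5, Lrp6 and Wnt9a were higher in both GFP+ libraries than in either GFP- library. That share of members, 11.1%, was close to the 11.8% of all tested genes, and none of these 4 passed edgeR's test. Of the 36 tested members, 11 fell in Ucp1 GFP+ cells and 0 rose (edgeR adjusted p of 0.05), where 14% of all tested genes fell and 0.277% rose. The 11 were Wnt2, Wnt5a, Wnt11, Fzd2, Fzd3, Sfrp1, Sfrp2, Sfrp4, Sfrp5, Dkk3 and Lgr6. When 1 library was left out, Wnt2 and Sfrp4 each lost their call in 6 of 12 fits and Sfrp2 in 2, the last without either Ucp1 GFP- library. Where a group had no count at all, the fold is a bound taken at 3 counts in the pooled total of that group. This bound covers counting error only and not differences between libraries, which were large in the Ucp1 GFP+ pair (r = 0.60).

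Dkk3 had 0 and 0 CPM in Ucp1 GFP+ cells, against 48.3 and 36.0 CPM in Ucp1 GFP- cells, and was at least 961-fold lower (edgeR adjusted p = 0.00117). Among the Frizzled-related genes, Sfrp5 had 0 and 0 CPM in Ucp1 GFP+ cells, against 13.8 and 7.37 CPM in Ucp1 GFP- cells, and was at least 241-fold lower (edgeR adjusted p = 0.00365). Sfrp1 had 0 and 0 CPM in Ucp1 GFP+ cells, against 8.54 and 7.95 CPM in Ucp1 GFP- cells (at least 188-fold lower, edgeR adjusted p = 0.00571). Both were empty in the GFP+ libraries, and of the GFP- libraries Sfrp1 was nearly even while Sfrp5 was higher in replicate 1. Sfrp4 had 0 and 0 CPM in Ucp1 GFP+ cells, against 16.7 and 6.48 CPM in Ucp1 GFP- cells (at least 264-fold lower, edgeR adjusted p = 0.0329), and Sfrp2 had 0 and 0 CPM, against 10.4 and 8.84 CPM (at least 220-fold lower, edgeR adjusted p = 0.0333). The Lgr6 receptor had 0 and 0 CPM in Ucp1 GFP+ cells, against 13.3 and 14.2 CPM in Ucp1 GFP- cells (at least 314-fold lower, edgeR adjusted p = 0.0153).

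Of the ligands, Wnt5a had 0 and 0 CPM in Ucp1 GFP+ cells, against 5.95 and 3.18 CPM in Ucp1 GFP- cells (at least 104-fold lower, edgeR adjusted p = 0.00736), and Wnt11 had 0 and 0 CPM, against 11.2 and 8.01 CPM (at least 218-fold lower, edgeR adjusted p = 0.0118). Wnt2 had 0 and 0 CPM in Ucp1 GFP+ cells, against 2.13 and 1.25 CPM in Ucp1 GFP- cells (at least 38.6-fold lower, edgeR adjusted p = 0.0386). These ligands were low already in the GFP- cells. Of the receptors, Fzd2 had 0 and 0 CPM in Ucp1 GFP+ cells, against 8.93 and 9.78 CPM in Ucp1 GFP- cells (at least 213-fold lower, edgeR adjusted p = 0.0116), and Fzd3 had 0 and 0.0485 CPM, against 5.44 and 4.74 CPM (log2 fold change -7.31, SE 1.502, edgeR adjusted p = 0.0112). Wnt10a, with 0 and 0 CPM in Ucp1 GFP+ cells, against 4.87 and 7.43 CPM in Ucp1 GFP- cells, did not pass (edgeR adjusted p = 0.0904), nor did Wnt7b, with 0 and 0 CPM, against 2.19 and 1.31 CPM (edgeR adjusted p = 0.0847).

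Wnt9a was the exception among the ligands, with 26.6 and 31.5 CPM in Ucp1 GFP+ cells, against 3.01 and 4.49 CPM in Ucp1 GFP- cells, higher in 2 of 2 libraries. Its log2 fold change was 2.95 (SE 1.15) and did not pass edgeR's test (adjusted p = 0.121). DESeq2 called 2 members higher, Wnt9a and Lrp6, and 14 lower, where 3.35% of all genes were called higher and 21.1% lower. Lrp6, the main co-receptor of the beta-catenin route, was at 223 and 81.8 CPM in Ucp1 GFP+ cells, against 51.6 and 44.2 CPM in Ucp1 GFP- cells (log2 fold change 1.67, SE 0.61, edgeR adjusted p = 0.0983). Lrp5 was at 36.5 and 52.4 CPM in Ucp1 GFP+ cells, against 18.2 and 20.2 CPM in Ucp1 GFP- cells (log2 fold change 1.21, SE 0.87, edgeR adjusted p = 0.407), and Fzd4, which also serves as the receptor for norrin in vessels, was at 98.2 and 91.5 CPM, against 72.3 and 75.0046 CPM (log2 fold change 0.36, SE 0.53, edgeR adjusted p = 0.729). Wnt9a, Fzd4, Lrp5 and Lrp6 were the 4 of 36 members whose GFP+ libraries lay above the GFP- libraries, where 11.8% of all tested genes did, and 23 members lay below, where 48.1% did. The share of members above, 11.1%, was thus close to that of all genes.

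Several other receptors were present in 1 Ucp1 GFP+ library and nearly absent in the other, while Fzd2, Fzd3, Fzd9, Fzd10, Lgr5 and Lgr6 had almost no or no count in either. Fzd8 was at 115 and 0 CPM in Ucp1 GFP+ cells, against 43.7 and 33.97 CPM in Ucp1 GFP- cells, and Fzd7 at 75.04 and 0 CPM, against 60.9 and 41.6 CPM. Fzd6 was the reverse of these, at 1.88 and 105 CPM in Ucp1 GFP+ cells, against 37.3 and 40.9 CPM in Ucp1 GFP- cells, and so was Fzd5, at 0.221 and 34.7 CPM, against 14.9 and 10.8 CPM. Lgr4, the Lgr receptor with the widest expression, was at 49.6 and 0.0243 CPM in Ucp1 GFP+ cells, against 39.3 and 29.7 CPM in Ucp1 GFP- cells. Fzd7, Fzd8 and Lgr4 were thus seen in replicate 1 and Fzd5 and Fzd6 in replicate 2. Wnt6 followed the same all-or-none pattern, with 0 and 20.1 CPM in Ucp1 GFP+ cells, against 22.5 and 25.7 CPM in Ucp1 GFP- cells, and Fzd1 too, with 0 and 3.59 CPM, against 31.7 and 21.7 CPM. Wnt4 was at 0.625 and 0.0243 CPM in Ucp1 GFP+ cells, against 8.90 and 7.92 CPM in Ucp1 GFP- cells.

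Empty values were common in these libraries, also outside the Wnt genes. No count was seen in either Ucp1 GFP+ library for 19 of the 36 tested members, against 28.5% of all tested genes. Among genes at 1 to 5 CPM in Ucp1 GFP- cells, 3 of 6 members had no count in either Ucp1 GFP+ library, against 49.4% of 2770 genes at that level. Among genes at 5 to 20 CPM, 9 of 13 members had none, against 20.7% of 3836 genes. Among genes at 20 to 100 CPM, 1 of 9 members did, against 2.13% of 5035 genes, and that member was Dkk3. The 2 Ucp1 GFP+ libraries also had fewer genes seen and a low agreement with each other. Every marker list but the endothelial one summed lower in them than in Ucp1 GFP- cells. Basal epithelial markers summed to 781 to 1148 CPM in Ucp1 GFP+ cells, against 2078 to 2144 CPM in Ucp1 GFP- cells. Pericyte markers summed to 710 to 987 CPM, against 1534 to 1552 CPM. The fibroblast markers summed to 192 to 823 CPM in Ucp1 GFP+ cells, where 5 and 7 of the 8 were detected and Thy1 was at 0 in both, against 2935 to 3636 CPM in Ucp1 GFP- cells. Endothelial markers summed to 4916 to 7108 CPM in Ucp1 GFP+ cells, against 4615 to 4716 CPM in Ucp1 GFP- cells. Their part in the result was not tested. The median log2 fold change over the 36 tested members was -3.60, with empty groups at their bound, against -0.66 over all tested genes.

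**Figure D3:**
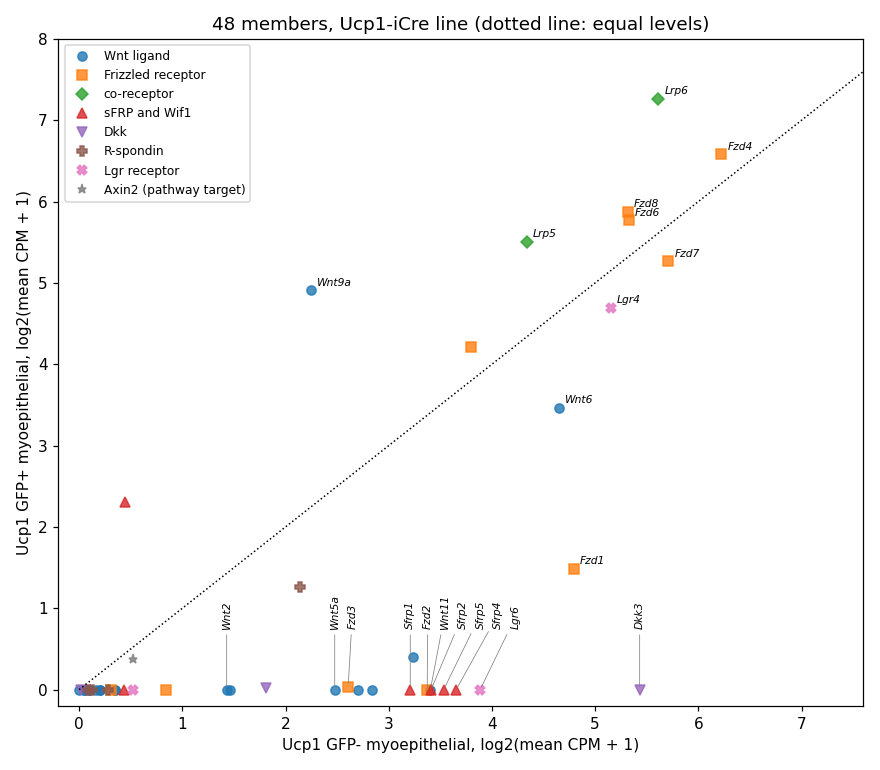
Mean level of the 48 genes in Ucp1 GFP+ (vertical axis) against Ucp1 GFP- myoepithelial cells (horizontal axis), both as log2(mean CPM + 1) over 2 libraries, with symbols by role. Points on the floor of the plot had no or almost no counts in Ucp1 GFP+ cells, among them the 11 genes that fell, while Wnt9a, Lrp5, Lrp6 and Fzd4 lay above the dotted line of equal levels. Fzd5, Fzd6, Fzd8 and Frzb also lay above it by their means, each through 1 GFP+ library.

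The effect of the GFP label was then compared between the lines in 1 test of the difference. It was lower in the Ucp1 line than in the Myf5 line for 9 of 36 members (Wnt2, Wnt5a, Wnt11, Fzd2, Sfrp1, Sfrp2, Sfrp4, Sfrp5 and Dkk3) and higher for 0, where 10.7% and 0.283% of all tested genes were called. Of the 9, Wnt5a, Wnt11, Sfrp1, Sfrp5 and Dkk3 were called under every alternative run. Sfrp2, Sfrp4 and Fzd2 lost their call without either Myf5 GFP- library, and Sfrp2 also in 3 further fits that left out 1 library, for a total of 5 of 12. Sfrp4 was at 0 and 0 CPM in Ucp1 GFP+ cells and at 4024 and 2532 CPM in Myf5 GFP+ cells, although its levels in the 4 GFP- libraries ranged only from 6.48 to 22.8 CPM. Dkk3 was at 0 and 0 CPM in Ucp1 GFP+ cells and at 319.9 and 319.8 CPM in Myf5 GFP+ cells, with 36.05 to 51.3 CPM in the 4 GFP- libraries. Wnt9a was the ligand present in all 4 GFP+ libraries, at 26.6 and 31.5 CPM in the Ucp1 line and 6.66 and 19.5 CPM in the Myf5 line.

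GFP- myoepithelial cells of both lines were next compared with brown adipocytes of both lines (n = 4 each). Ligands, secreted Frizzled-related genes and Dickkopf genes were mostly higher in the mammary cells, while Rspo4 was found almost only in brown adipocytes. Of 36 tested members, 13 rose and 1 fell in GFP- myoepithelial cells, where 14.6% of all tested genes rose and 12% fell (edgeR adjusted p of 0.05). The median log2 fold change was 2.36 over the members and 0.35 over all tested genes, with empty groups at their bound. The 13 were the ligands Wnt2, Wnt4, Wnt6, Wnt7b, Wnt9a and Wnt10a, the receptor Fzd2, and Sfrp1, Sfrp2, Sfrp4, Sfrp5, Dkk2 and Dkk3. This count was sensitive to single libraries: it was 9 and 6 members without Myf5 GFP- replicate 1 or 2, 5 and 5 without Ucp1 GFP- replicate 1 or 2, 5 and 5 without Ucp1 brown replicate 1 or 2, and 8 and 7 without Myf5 brown replicate 1 or 2. The number of called genes over all genes dropped as well, to between 2008 and 2947 genes in these 8 fits, against 4515 genes with all libraries. Dkk3, Fzd2, Rspo4, Sfrp1 and Wnt9a were called under every alternative run. Markers of other cell types and the mitochondrial share also differed between the tissues. Fibroblast markers summed to 561 to 3636 CPM in GFP- myoepithelial cells, against 43.5 to 108 CPM in brown adipocytes, pericyte markers to 428 to 1552 CPM, against 176 to 611 CPM, and endothelial markers to 3564 to 4716 CPM, against 126 to 3713 CPM. Mitochondrial genes held 0.987% to 1.28% of counts in GFP- myoepithelial cells, against 12.6% to 36.0% in brown adipocytes. Their part in these differences was not tested.

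Dkk3 averaged 44.1 ± 6.93 CPM in GFP- myoepithelial cells and 2.43 ± 3.26 CPM in brown adipocytes (SD, n = 4 each, edgeR adjusted p = 0.00032). The brown values were 2.84 and 6.89 CPM in the Ucp1 line and 0 and 0 CPM in the Myf5 line. Sfrp1 averaged 8.23 ± 3.64 CPM in GFP- myoepithelial cells and 0.491 ± 0.568 CPM in brown adipocytes (SD, n = 4 each, edgeR adjusted p = 0.00487). Fzd2 averaged 8.79 ± 2.58 CPM in GFP- myoepithelial cells and 0.125 ± 0.144 CPM in brown adipocytes (SD, n = 4 each, log2 fold change 6.09, SE 1.22, edgeR adjusted p = 0.00861). For these 3 genes every GFP- myoepithelial library lay above every brown library. Such separation was seen for 12 members in all and 19.4% of all tested genes, while 1 member and 18% of all tested genes lay below. Wnt4, a ligand needed for mammary branching, averaged 9.95 ± 8.95 CPM in GFP- myoepithelial cells and 0.0229 ± 0.0458 CPM in brown adipocytes (SD, n = 4 each, edgeR adjusted p = 0.0222), and 6.07% of its 31-base sequences also occur in other genes.

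Wnt6 and Wnt10a were empty in all 4 brown adipocyte libraries. Wnt6 was at 8.96 and 43.1 CPM in Myf5 GFP- and 22.5 and 25.7 CPM in Ucp1 GFP- cells, at least 337-fold higher than in brown adipocytes (edgeR adjusted p = 0.0374). Wnt10a was at 1.24 and 18.9 CPM in Myf5 GFP- and 4.87 and 7.43 CPM in Ucp1 GFP- cells, at least 109-fold higher (edgeR adjusted p = 0.0302). Wnt7b, a ligand also found in mammary epithelium, averaged 1.31 ± 0.894 CPM in GFP- myoepithelial cells and 0 CPM in brown adipocytes (SD, n = 4 each, at least 17.7-fold higher, edgeR adjusted p = 0.0424). Its level was only 0.0888 CPM in 1 Myf5 GFP- library. The Wnt7b call was lost without the filter, with DESeq2, with limma-voom and with the replicate number as a block. Wnt6 (chr1:74771892-74785322) and Wnt10a (chr1:74791516-74804179) are neighbours on the plus strand of mm10, 6194 bases apart. At 1 CPM or more, Wnt6 was seen in 6 libraries, Wnt10a in 5, and both in 5. The neighbours Wnt3a and Wnt9a, on opposite strands 16176 bases apart, did not pair in this way: Wnt9a reached 1 CPM in 8 libraries and Wnt3a in 0.

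For some of the 13 genes the libraries of both tissues overlapped. Wnt9a averaged 3.12 ± 1.73 CPM in GFP- myoepithelial cells and 0.635 ± 0.813 CPM in brown adipocytes (SD, n = 4 each, edgeR adjusted p = 0.0122), with brown values of 0.840 and 1.70 CPM in the Ucp1 line and 0 and 0 CPM in the Myf5 line. Sfrp5, which is known as a secreted product of adipocytes, averaged 7.08 ± 4.92 CPM in GFP- myoepithelial cells and 3.24 ± 3.68 CPM in brown adipocytes (SD, n = 4 each, edgeR adjusted p = 0.0248). Sfrp4 overlapped through 1 brown library, with brown values of 0 and 0 CPM in the Ucp1 line and 8.67 and 0 CPM in the Myf5 line (edgeR adjusted p = 0.0323). Sfrp2 did not overlap, with brown values of 0 and 0 CPM in the Ucp1 line and 0.977 and 0 CPM in the Myf5 line (edgeR adjusted p = 0.0208). Wnt2 and Dkk2 had 0 CPM in all 4 brown libraries, and in GFP- cells they had at most 2.13 and 2.98 CPM, with 0 in Myf5 GFP- replicate 1 for both, so that the tissues overlapped at 0.

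Rspo4, an R-spondin, averaged 0.0301 ± 0.0601 CPM in GFP- myoepithelial cells and 10.6 ± 6.76 CPM in brown adipocytes (SD, n = 4 each, edgeR adjusted p = 0.0096). In brown adipocytes it was at 4.31 and 19.1 CPM in the Ucp1 line and 13.1 and 6.14 CPM in the Myf5 line, and among the 8 mammary libraries it had a count in 1, at 0.120 CPM. Lgr6, which can bind R-spondins, was at 9.66 and 32.1 CPM in Ucp1 and 130.0 and 192 CPM in Myf5 brown adipocytes, with 1.91 to 14.3 CPM in the 4 GFP- myoepithelial libraries, so that the tissues overlapped, and was not called in the 12-library test (edgeR adjusted p = 0.11). Axin2, a common readout of beta-catenin signalling, stayed low everywhere: GFP- myoepithelial cells had 0.283 to 0.581 CPM, Ucp1 brown adipocytes 0.525 and 1.45 CPM and Myf5 brown adipocytes 4.03 and 4.40 CPM (edgeR adjusted p = 0.19). Without the 2 Ucp1 GFP+ libraries the fit called Lgr6 (adjusted p = 0.0365) and Axin2 (adjusted p = 0.0417) lower in GFP- myoepithelial cells, and Fzd7, Lgr4 and Lrp6 higher, so that 16 of 34 members rose and 3 fell, where 23.3% of all genes rose and 18.3% fell.

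Rspo4 lies at chr2:151842927-151874668 on the plus strand and Lgr6 at chr1:134983301-135105276 on the minus strand of mm10. As an R-spondin and a possible receptor for it that were both present in all 4 brown adipocyte libraries, their promoter windows are shown with the same 3 motifs in capitals, Rspo4 at chr2.0:151842677.0-151842976.0 on the plus strand and Lgr6 at chr1.0:135105227.0-135105526.0 on the minus strand (GRCm38.p6).
Rspo4 promoter: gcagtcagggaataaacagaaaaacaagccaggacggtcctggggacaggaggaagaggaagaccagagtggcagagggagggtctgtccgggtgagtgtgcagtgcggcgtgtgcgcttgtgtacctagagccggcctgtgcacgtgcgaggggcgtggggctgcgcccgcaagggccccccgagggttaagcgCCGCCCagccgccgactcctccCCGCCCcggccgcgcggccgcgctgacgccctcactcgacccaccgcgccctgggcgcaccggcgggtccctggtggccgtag
Lgr6 promoter: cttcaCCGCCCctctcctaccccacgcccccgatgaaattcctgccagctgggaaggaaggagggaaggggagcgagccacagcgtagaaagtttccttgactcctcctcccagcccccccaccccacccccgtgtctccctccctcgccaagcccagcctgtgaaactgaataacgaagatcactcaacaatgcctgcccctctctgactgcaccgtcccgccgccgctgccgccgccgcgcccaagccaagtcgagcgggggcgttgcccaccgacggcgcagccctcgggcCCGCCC
Each window held 2 GC boxes and neither a TATA box nor a TCF/LEF word. Wnt6 and Wnt9a, the ligands that led in GFP- and in Ucp1 GFP+ myoepithelial cells on the per-length scale, held more GC boxes, 6 at chr1.0:74771642.0-74771941.0 and 5 at chr11.0:59306680.0-59306979.0, both on the plus strand.
Wnt6 promoter: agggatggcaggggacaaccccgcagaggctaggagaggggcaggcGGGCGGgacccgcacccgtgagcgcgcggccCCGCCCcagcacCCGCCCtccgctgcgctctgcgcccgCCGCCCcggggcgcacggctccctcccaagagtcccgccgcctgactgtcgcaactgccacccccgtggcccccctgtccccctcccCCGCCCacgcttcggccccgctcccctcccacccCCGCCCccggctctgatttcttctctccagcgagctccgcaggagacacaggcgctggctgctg
Wnt9a promoter: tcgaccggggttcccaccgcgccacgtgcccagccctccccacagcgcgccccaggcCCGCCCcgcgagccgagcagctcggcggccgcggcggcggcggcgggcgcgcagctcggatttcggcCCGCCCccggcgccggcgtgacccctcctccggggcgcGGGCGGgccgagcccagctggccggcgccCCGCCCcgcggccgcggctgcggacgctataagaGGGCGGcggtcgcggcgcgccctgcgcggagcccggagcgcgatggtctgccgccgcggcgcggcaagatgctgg

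GFP+ myoepithelial cells were also compared with the GFP+ brown adipocytes of their own line. The Myf5 brown libraries and the Ucp1 brown libraries also served in the comparison with GFP- cells, and the GFP+ mammary libraries in those of the label, so these results are not independent of each other. In Myf5 GFP+ myoepithelial cells 8 of 36 members rose and 2 fell, where 10.9% of all tested genes rose and 8.84% fell. The median log2 fold change was 2.94 over the 34 members with a count in either group and 0.15 over all tested genes, with empty groups at their bound. Those that rose were Wnt2, Wnt9a, Fzd2, Sfrp1, Sfrp4, Sfrp5, Dkk2 and Dkk3, and those that fell were Rspo4 and Lgr6. The count of 10 dropped to 4 without Myf5 GFP+ replicate 1, and likewise to 4 without either Myf5 brown replicate, where 1751, 1163 and 1480 genes in all were called, against 3350 with all libraries. Dkk3, Sfrp5 and Wnt9a were called under every alternative run.

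Dkk3 was at least 2037-fold higher in Myf5 GFP+ myoepithelial cells than in Myf5 brown adipocytes (edgeR adjusted p = 0.000701), since both brown libraries were at 0. Sfrp5 was at 18.7 and 35.5 CPM in Myf5 GFP+ myoepithelial cells, against 0.122 and 0 CPM in Myf5 brown adipocytes (log2 fold change 8.79, SE 1.54, edgeR adjusted p = 0.00679). Wnt2, at least 663-fold higher (edgeR adjusted p = 0.0121), Dkk2, at least 178-fold higher (edgeR adjusted p = 0.0403), and Wnt9a, at least 83.2-fold higher (edgeR adjusted p = 0.00695), also had 0 CPM in both Myf5 brown libraries. The lower genes ran the other way: Lgr6 was at 0 and 1.13 CPM in Myf5 GFP+ myoepithelial cells, against 130.0 and 192 CPM in Myf5 brown adipocytes (log2 fold change -8.09, SE 1.87, edgeR adjusted p = 0.0202). Rspo4 was at 0 and 0 CPM in Myf5 GFP+ myoepithelial cells, against 13.1 and 6.14 CPM in Myf5 brown adipocytes (at least 142-fold lower, edgeR adjusted p = 0.032). Of the receptors, Fzd4 was at 33.3 and 84.0 CPM in Myf5 GFP+ myoepithelial cells, against 44.3 and 45.8 CPM in Myf5 brown adipocytes, and Lrp6 at 57.7 and 54.0 CPM, against 35.4 and 26.5 CPM. Lrp6 did not overlap between the groups and Fzd4 did, and neither passed the test. The fibroblast markers summed to 11808 to 19230 CPM in Myf5 GFP+ myoepithelial cells, against 55.9 to 108 CPM in Myf5 brown adipocytes, and their part in these differences was not tested.

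In Ucp1 GFP+ myoepithelial cells 2 of 36 members rose against Ucp1 brown adipocytes and 8 fell, where 5.34% of all tested genes rose and 22.5% fell. Both shares of the members, 5.56% and 22.2%, were close to those of all genes. Wnt9a and Lrp6 rose. Wnt9a was at 26.6 and 31.5 CPM in Ucp1 GFP+ myoepithelial cells, against 0.840 and 1.70 CPM in Ucp1 brown adipocytes (log2 fold change 4.50, SE 1.24, edgeR adjusted p = 0.0291). Lrp6 was at 223 and 81.8 CPM in Ucp1 GFP+ myoepithelial cells, against 24.8 and 16.7 CPM in Ucp1 brown adipocytes (log2 fold change 2.88, SE 0.64, edgeR adjusted p = 0.0111). Wnt5a, Wnt11, Fzd3, Sfrp1, Sfrp5, Dkk3, Rspo4 and Lgr6 fell, and all of them but Fzd3 had 0 CPM in both Ucp1 GFP+ myoepithelial libraries. Lgr6 was at least 477-fold lower (edgeR adjusted p = 0.00886), and Sfrp5, with 6.72 and 6.12 CPM in Ucp1 brown adipocytes, at least 146-fold lower (edgeR adjusted p = 0.00333). The count of 10 grew to 17 without Ucp1 GFP+ replicate 1 and dropped to 7 without Ucp1 brown replicate 2, which lost Wnt9a, Lrp6 and Rspo4. Wnt9a lost its call in 4 of 12 fits that left out 1 library, and Lrp6 lost its call with limma-voom. Fzd4 and Lrp5 did not overlap either: Fzd4 was at 98.2 and 91.5 CPM in Ucp1 GFP+ myoepithelial cells, against 45.7 and 26.3 CPM in Ucp1 brown adipocytes, and Lrp5 at 36.5 and 52.4 CPM, against 11.6 and 3.32 CPM. Neither passed (edgeR adjusted p = 0.0828 and 0.0621). By a test of the difference added after the data had been seen, the mammary-to-brown contrast was lower in the Ucp1 line than in the Myf5 line for 7 of 36 members and higher for 0, where 12.4% of all tested genes were lower and 0.79% higher.

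**Figure D4:**
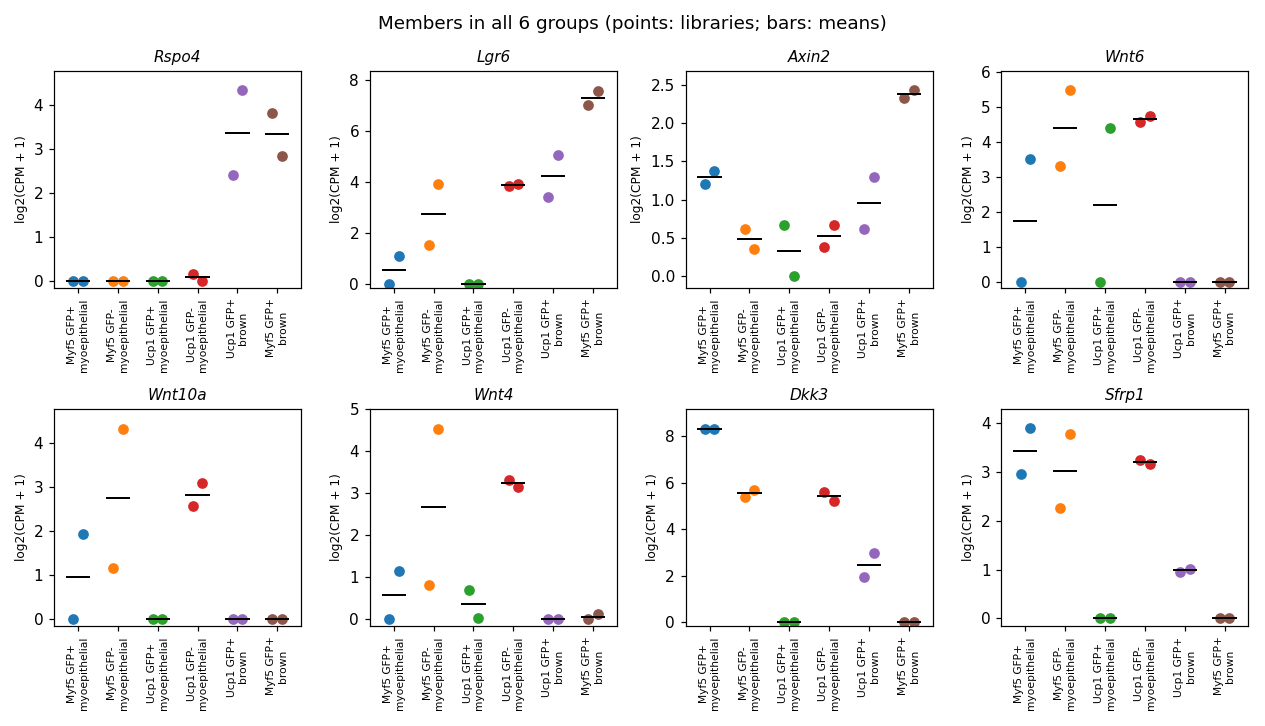
Level of genes in each library of all 6 groups, as log2(CPM + 1), with the mammary groups left of the brown adipocyte groups. Points are libraries (n = 2 per group) and the bar is the mean of the 2 points. Rspo4 had a count in all 4 brown adipocyte libraries and in 1 mammary library, Lgr6 was highest in the 2 Myf5 brown adipocyte libraries, Wnt6 was at 0 in all 4 brown libraries as in 1 library of each GFP+ myoepithelial group, and Dkk3 was at 0 in the 2 Ucp1 GFP+ myoepithelial and the 2 Myf5 brown libraries.

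Between the tracing lines, brown adipocytes differed at 1 of 36 members. Dkk3 rose in Ucp1 brown adipocytes, at 2.84 and 6.89 CPM, against 0 and 0 CPM in Myf5 brown adipocytes (at least 30.96-fold higher, edgeR adjusted p = 0.026), where 1.29% of all tested genes rose and 0.0236% fell. This call depended on the libraries fitted and was lost in 8 of the 12 fits that left out 1 library, in which 0 to 20 genes in all were called, against 223 with all libraries. Without the 2 Ucp1 GFP+ libraries 3 members rose in Ucp1 brown adipocytes, Dkk3, Sfrp1 and Sfrp5, where 5.02% of all genes rose and 0.605% fell. Other members did not overlap without passing the test. With Dkk3, 10 members lay higher in Ucp1 brown adipocytes in both libraries and 8 lower, where 31.3% and 28.3% of all tested genes did. The shares of members, 27.8% and 22.2%, were thus no larger than those of all genes, and the values below are given as a description only. Lgr6 was at 9.66 and 32.1 CPM in Ucp1 brown adipocytes, against 130.0 and 192 CPM in Myf5 brown adipocytes (log2 fold change -2.94, SE 1.47, edgeR adjusted p = 0.457), and Axin2 at 0.525 and 1.45 CPM, against 4.03 and 4.40 CPM (log2 fold change -2.09, SE 1.65, edgeR adjusted p = 0.698). Sfrp5 was at 6.72 and 6.12 CPM in Ucp1 brown adipocytes, against 0.122 and 0 CPM in Myf5 brown adipocytes (log2 fold change 6.72, SE 1.44, edgeR adjusted p = 0.0696). Wnt5a was at 1.89 and 6.63 CPM in Ucp1 brown adipocytes, against 13.3 and 16.2 CPM in Myf5 brown adipocytes, Wnt11 at 1.79 and 5.19 CPM, against 5.86 and 6.23 CPM, and Fzd7 at 4.94 and 3.40 CPM, against 21.4 and 21.1 CPM. Fzd6 ran the other way, at 27.2 and 24.4 CPM in Ucp1 brown adipocytes, against 3.66 and 8.89 CPM in Myf5 brown adipocytes, as did Fzd8, at 15.4 and 26.3 CPM, against 14.9 and 14.4 CPM. Fzd1 was at 5.04 and 2.64 CPM in Ucp1 brown adipocytes, against 11.2 and 14.0 CPM in Myf5 brown adipocytes, and Lgr4 at 3.05 and 5.02 CPM, against 13.4 and 8.34 CPM. Fzd5 overlapped, at 4.10 and 6.46 CPM in Ucp1 brown adipocytes, against 5.13 and 1.74 CPM in Myf5 brown adipocytes. Endothelial markers summed to 1931 to 3713 CPM in Ucp1 brown adipocytes, against 126 to 457 CPM in Myf5 brown adipocytes, and their part in these values was not tested.

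GFP- myoepithelial cells of the Ucp1 line were compared with those of the Myf5 line as unlabelled cells of both lines. No member was called in edgeR's test, where 0% of all tested genes were called (604 genes and 3 members at an unadjusted p under 0.05), and DESeq2 called no member, where 0.177% of all genes were called higher and 0.0767% lower. Lrp5 was at 18.2 and 20.2 CPM in Ucp1 GFP- cells, against 3.28 and 5.18 CPM in Myf5 GFP- cells (log2 fold change 2.18, SE 0.90), and Sfrp5 at 13.8 and 7.37 CPM, against 4.93 and 2.27 CPM. Fzd1 was at 31.7 and 21.7 CPM in Ucp1 GFP- cells, against 1.51 and 11.6 CPM in Myf5 GFP- cells. These 3 were among the 6 members that lay higher in both Ucp1 libraries, and 1 member lay lower, where 30.4% and 17.8% of all tested genes did. The shares of members, 16.7% and 2.78%, were below those of all genes. Fibroblast markers summed to 2935 to 3636 CPM in Ucp1 GFP- cells, against 561 to 895 CPM in Myf5 GFP- cells, and pericyte markers to 1534 to 1552 CPM, against 428 to 670 CPM, and their part in these values was not tested. A p that misses the threshold does not show that the lines are alike.

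Beyond the 48 genes, 4 lists of other pathway genes were read in the same tests. Among 17 tested genes of Wnt secretion and other surface factors, 0 rose and 6 fell in Ucp1 GFP+ against Ucp1 GFP- myoepithelial cells, and the glypican Gpc3 had the smallest adjusted p of these (mean 0.0121 CPM, against 42.5 CPM, log2 fold change -11.07, edgeR adjusted p = 0.00117). Ror2, a Wnt5a receptor, had 0 CPM in Ucp1 GFP+ cells, against a mean of 8.54 ± 1.53 CPM in Ucp1 GFP- cells (n = 2 each), and Znrf3, which removes Frizzled from the surface, had 0 CPM, against 3.95 ± 1.60 CPM. Of 23 intracellular genes 3 fell and 0 rose, among them Tcf7 and Amer1, of 11 tested beta-catenin targets 3 fell and 0 rose, among them Twist1, and of 10 planar cell polarity genes 0 were called. Of all tested genes 14% fell in that comparison, so that the intracellular share was near that of all genes. No gene of the 4 lists was called in Myf5 GFP+ against Myf5 GFP- cells. In Myf5 GFP+ myoepithelial cells against Myf5 brown adipocytes, 4 surface genes rose, 2 intracellular genes rose and 2 fell, and 4 targets rose, where 10.9% of all tested genes rose and 8.84% fell. Among these, Gpc3 averaged 241 ± 40.7 CPM in the mammary cells and 1.40 ± 0.949 CPM in the brown adipocytes, Procr 257 ± 18.8 CPM and 1.57 ± 0.0207 CPM, and Myc 337 ± 134 CPM and 59.3 ± 23.5 CPM (SD, n = 2 each). GFP- myoepithelial cells against brown adipocytes gave 5 surface genes that rose and 0 that fell, 2 intracellular genes that rose and 1 that fell, 3 targets that rose and 1 that fell, and 1 polarity gene that rose, where 14.6% of all tested genes rose and 12% fell. Ptk7 averaged 22.1 ± 12.3 CPM in GFP- myoepithelial cells and 0.483 ± 0.512 CPM in brown adipocytes (SD, n = 4 each, edgeR adjusted p = 0.00342). In Ucp1 GFP+ myoepithelial cells against Ucp1 brown adipocytes, 5 surface genes, 4 intracellular genes, 2 targets and 1 polarity gene fell and none rose, where 22.5% of all tested genes fell and 5.34% rose.

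The intracellular gene that fell in GFP- myoepithelial cells was Dvl2, which relays the Frizzled signal, at 13.2 ± 4.43 CPM in GFP- myoepithelial cells and 2391 ± 1622 CPM in brown adipocytes (SD, n = 4 each, log2 fold change -7.26, SE 1.04, edgeR adjusted p = 0.00146). Dvl2 (chr11:70000595-70012301, plus strand) shares 2119 bases with Acadvl (chr11:70010183-70015411, minus strand), a gene of mitochondrial fatty acid oxidation. Acadvl averaged 6632 ± 732 CPM in Myf5 brown adipocytes and 50.4 to 80.8 CPM across the 4 mammary groups. The strand setting of the counting is not given in the sources used here, so reads from the overlap cannot be told apart between the genes.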

How the data were processed

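RNA was extracted with the RNeasy Micro Kit, amplified with SMART-Seq v4 and sequenced on a HiSeq instrument, per the labels' protocols. Per the submitters' processing notes, TopHat, HTSeq and DESeq2 were used with mm10. Tool versions, annotation and strand setting: not given in the sources used here. Raw read counts per Ensembl gene were deposited by the authors, 1 table per library, with 0 unused columns and no rows other than genes.

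Symbols, positions and exon lengths came from GENCODE M21 (mm10), and promoter sequences from the RefSeq table of GRCm38.p6, where 32 of the 48 genes had an entry. The members and lists were chosen with earlier results of these data known. Samples were grouped by label, and genes were tested with edgeR's (4.0.16, R 4.3.3) quasi-likelihood test with TMM factors and filterByExpr (minimum count 10), in 1 fit of 12 libraries with a mean per group and Benjamini-Hochberg adjustment at 0.05 over 16953 genes. CPM values carry the TMM factors. Standard errors were obtained by dividing each log2 fold change by the root of its F. Folds against an empty group are bounds at 3 counts in that group's pooled total, and no fitted fold change is given where a group held no count. For the 4-library groups, fold changes are contrasts of group means on the log scale.

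The alternatives were RLE factors, no filter, DESeq2 (1.42.0), limma-voom (limma 3.58.1, voomLmFit), a 10-library fit without the Ucp1 GFP+ libraries, removal of milk and mitochondrial genes, a replicate block and leaving out each library. Scripts were tested on simulated data. Any of the 48 genes could be named. Values in every library are given for those averaging at least 10 CPM in a group or called in a comparison, and up to 6 called genes per comparison came from the other pathway lists. Whether replicates came from separate animals is not said in the labels, and the p-values reflect the spread between libraries, which may be technical. Depth limits each value as given by the 95% upper limit for 0 counts.

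Counting could blur some genes: 16.1% of the exonic bases of Sfrp2, 17.8% of Fzd5 and 8.80% of Wnt11 overlap another gene.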

Additional observations from a re-analysis of the deposited data

Results flagged for a closer look

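The effect of the GFP label differed between the lines for 9 of 36 members, by the edgeR test of the difference itself. In each of the 9 the effect was lower in the Ucp1 line, where 10.7% of all tested genes were lower and 0.283% higher. The adjusted p-values were 0.00845 for Wnt2, 0.0108 for Wnt5a, 0.00952 for Wnt11, 0.0152 for Fzd2, 0.0102 for Sfrp1, 0.0291 for Sfrp2, 0.00999 for Sfrp4, 0.00386 for Sfrp5 and 0.00198 for Dkk3. Each had 0 counts in both Ucp1 GFP+ libraries and a count in both Myf5 GFP+ libraries.

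The difference between GFP+ myoepithelial cells and GFP+ brown adipocytes also differed between the lines, by a test added after the data had been seen, for 7 of 36 members, where 12.4% of all tested genes were lower in the Ucp1 line and 0.79% higher. The adjusted p-values were 0.032 for Wnt2b, 0.0126 for Wnt5a, 0.013 for Wnt11, 0.0185 for Fzd2, 0.00388 for Sfrp1, 0.00215 for Sfrp5 and 0.00175 for Dkk3. Wnt2b was at 0 and 0 CPM in Ucp1 GFP+ myoepithelial cells and 0.630 and 0.170 CPM in Ucp1 brown adipocytes, and at 5.04 and 1.20 CPM in Myf5 GFP+ myoepithelial cells and 0 and 0 CPM in Myf5 brown adipocytes. Both sets rest on the same 2 Ucp1 GFP+ libraries, and the part of their low number of detected genes was not tested.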

How the results depend on the processing

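No called member reversed direction under the alternatives run. The median log2 fold change over all genes could change sign. For Myf5 GFP+ myoepithelial cells over brown adipocytes it was 0.14 in the main fit and -0.09 with limma-voom. Over 149 combinations of comparison and alternative, 152 calls of single members were lost and 114 were gained. The count of members called for the Myf5 label was 0, against 4 with DESeq2, 2 with limma-voom and 2 without the 2 Ucp1 GFP+ libraries, where 0, 724, 71 and 232 genes in all were called. The count for the difference of the label between lines was 9, against 14 with DESeq2 (1861 and 3096 genes in all). For Ucp1 GFP+ myoepithelial cells over brown adipocytes it was 10, against 16 with DESeq2 (4717 and 6424 genes in all). For Ucp1 over Myf5 brown adipocytes it was 1, against 5 with DESeq2, 0 with limma-voom and 3 without the Ucp1 GFP+ libraries (223, 1486, 1 and 929 genes in all). The cause of these shifts was not tested.

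Leaving out 1 library gave 0 to 2 members for the Myf5 label, 8 to 14 for the Ucp1 label, 6 to 14 for the difference of the label, 4 to 13 for Myf5 and 7 to 17 for Ucp1 GFP+ myoepithelial cells over brown adipocytes, 5 to 18 for GFP- myoepithelial cells over brown adipocytes, 0 to 3 for the brown adipocyte lines and 0 to 0 for the GFP- lines. The 2 members called for the Myf5 label appeared without either Ucp1 GFP+ library, and the 14 for the difference appeared without Ucp1 GFP+ replicate 2. Where 1 library was left in a group, it was taken to vary like the other groups. The number of called genes over all genes also changed in these fits, so the ranges are not particular to the members. For the Ucp1 label, Dkk3, Fzd2, Fzd3, Lgr6, Sfrp1, Sfrp5, Wnt11 and Wnt5a were called in all 18 alternatives.

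With the replicate number as a block, 5 members were called for the difference of the label, without Wnt2, Fzd2, Sfrp2 and Sfrp4, 8 for the Ucp1 label, without Wnt2, Sfrp2 and Sfrp4, and 11 for GFP- myoepithelial cells over brown adipocytes. The labels do not say that equal numbers share an animal or a day. Same-numbered GFP+ and GFP- libraries deviated together at r = 0.62 in the Myf5 line and r = 0.09 in the Ucp1 line. RLE in place of TMM factors gave a median log2 fold change of all genes of -0.51, against -0.69 with TMM, for the Ucp1 label, and of 0.11, against 0.35 with TMM, for GFP- myoepithelial cells over brown adipocytes. Depth limits genes under about 0.272 CPM in raw totals, and under a higher level in brown adipocytes once TMM factors are applied.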

Other observations

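Several less abundant members were seen in 1 library of a pair and not in the other. Rspo1 was at 0 and 13.3 CPM in Myf5 GFP+ cells, against 0.621 and 4.61 CPM in Myf5 GFP- cells, and Rspo2 was at 0 and 3.80 CPM, against 0 and 0 CPM. Wif1, a secreted Wnt binder, was at 0 and 8.55 CPM in Myf5 GFP+ cells, against 0 and 0.850 CPM in Myf5 GFP- cells. In these 3 genes replicate 1 of the Myf5 GFP+ cells had no count. Frzb, a further Frizzled-related protein, was at 7.90 and 0 CPM in Ucp1 GFP+ cells, against 0.301 and 0.428 CPM in Ucp1 GFP- cells. Lgr5, a stem cell marker in several epithelia, stayed at or under 0.631 CPM in all 12 libraries and Fzd9 at or under 2.63 CPM. Wnt5b was at 0 and 0 CPM in Ucp1 GFP+ cells, against 5.83 and 5.20 CPM in Ucp1 GFP- cells, and at 2.55 and 7.18 CPM in Myf5 GFP+ cells, against 0.222 and 9.23 CPM in Myf5 GFP- cells. Wnt1 was at most 1.76 CPM, in Myf5 GFP+ replicate 2.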
